A study of Homo sapiens with 8 samples.

Results

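The 41 genes described here are interferon-stimulated genes, a fixed list of genes known to respond to type I interferon, and were measured in aggregates of the human neuroblastoma cell line IGR-N91. Membership goes by gene name and applies no threshold to the measured values, although the list was drawn up with earlier results of these data known. Every one of the 41 had a row among the 60676 gene identifiers counted. RNA was sequenced from 8 libraries, 2 for each of 4 groups. The question of the study was how media conditioned by embryonic ganglia change the state of neuroblastoma cells.

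All groups were IGR-N91 cells grown as aggregates in hanging drops. The control group received medium in which no tissue had been cultured. The E8-cSGcm group received medium conditioned by sympathetic ganglia of E8 chick embryos, the E8-cDRGcm group medium conditioned by dorsal root ganglia of E8 chick embryos, and the E15.5-mSGcm group medium conditioned by sympathetic ganglia of E15.5 mouse embryos. The sample labels give an exposure of 20 h and the design text of the series 24 h. Only 1 cell line was studied, no interferon-treated group is among these libraries, and the 2 libraries of a group are called duplicates. The methods state in general that samples were distinct but do not say whether these duplicates were separate cultures, so p-values measure only the spread between these libraries, which may be technical.

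Library totals ran from 7930765 to 15060744 counts, with both E15.5-mSGcm libraries (7930765 and 8937397) below the other 6, so that 3 counts corresponded to between 0.199 and 0.378 counts per 1000000 (CPM). All 10 noradrenergic neuroblastoma markers passed the filter on low counts, with a summed level of 6119 to 6209 CPM in the control libraries and 3614 to 4788 CPM in the 6 libraries of conditioned media. MYCN made up most of that sum, at 4679 and 4610 CPM in the control libraries. The markers did not move together: in E15.5-mSGcm the log2 fold change against control was -0.82 for MYCN, 0.02 for ISL1 and 0.47 for DBH. Among the immune markers, TYROBP and CD3E had no read in any library, and only CD74 had more than 3 reads in a library. CDH5 (endothelium) and SOX10 (glia) were also at 0. All 6 fibroblast markers passed the filter, with a summed level of 415 to 427 CPM in control, 434 to 447 in E8-cSGcm, 448 to 463 in E8-cDRGcm and 475 to 485 in E15.5-mSGcm. PDGFRB made up most of the fibroblast sum in control, at 259 and 254 CPM. The control medium had no tissue cultured in it, so in control these markers were read in IGR-N91 cells. In bulk samples such as these, fewer cells with a transcript and less of it per cell cannot be told apart.

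Type I interferons bind a receptor made of IFNAR1 and IFNAR2, and the kinases JAK1 and TYK2 then phosphorylate STAT2 and its partner. With IRF9, STAT2 takes part in a complex that binds the interferon-stimulated response element (ISRE) in the promoters of the target genes, whereas STAT homodimers bind a palindromic site. The products include sensors of viral RNA, enzymes that degrade or sequester it, the ubiquitin-like protein ISG15 with its conjugating and removing enzymes, and transcription factors that feed back on the pathway. Several of these genes, IRF1 among them, also respond to other cytokines or to IRF3 directly.

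Promoter windows, from 250 bases before to 50 bases after the start site, were available for 33 of the 41 genes in the RefSeq table (GRCh38.p14). The ISRE core searched was GAAA, any 2 bases and GAAA again, on both strands, so that a match on the other strand reads TTTC, any 2 bases and TTTC. It was present in 22 of the 33 genes (66.7%) and in 1195 of all 27305 genes of the table (4.38%). The core of the STAT homodimer site, TTCNNNGAA, was present in 8 of the 33 (24.2%) and in 2560 of 27305 (9.38%). The stretches below come from members that rose or fell in at least 1 medium (ISG20, SAMD9, PARP14, OAS3, IFIT1, IRF1), from tested members that were not called in any medium (ISG15, IFI6, PARP9) and from members without a single read (IFI27, IFI44). They are written 5′ to 3′ on the strand of the gene, with the ISRE core matches in capitals. In the IRF1 stretch the capitals mark the STAT homodimer core.
ISG20: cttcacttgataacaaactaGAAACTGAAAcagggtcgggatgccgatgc
SAMD9: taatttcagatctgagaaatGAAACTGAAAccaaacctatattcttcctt
PARP14: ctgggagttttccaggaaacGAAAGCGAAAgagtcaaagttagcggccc
OAS3: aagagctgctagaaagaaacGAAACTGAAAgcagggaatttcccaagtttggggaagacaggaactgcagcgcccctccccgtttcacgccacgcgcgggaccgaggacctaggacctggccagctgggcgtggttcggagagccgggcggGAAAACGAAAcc
PARP9: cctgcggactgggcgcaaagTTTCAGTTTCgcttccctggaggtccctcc
IFIT1: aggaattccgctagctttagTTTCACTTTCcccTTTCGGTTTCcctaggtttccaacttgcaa
ISG15: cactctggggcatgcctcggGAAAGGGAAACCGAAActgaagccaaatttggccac
IFI6: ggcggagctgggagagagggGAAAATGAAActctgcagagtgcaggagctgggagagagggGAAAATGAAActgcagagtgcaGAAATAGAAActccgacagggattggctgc
IFI27: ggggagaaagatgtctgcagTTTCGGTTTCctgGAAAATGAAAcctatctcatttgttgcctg
IFI44: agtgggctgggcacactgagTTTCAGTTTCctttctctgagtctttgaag
IRF1: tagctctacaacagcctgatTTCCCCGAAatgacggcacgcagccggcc

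The ISG20 stretch lies at chr15:88638927-88638976 (plus strand), that of SAMD9 at chr7:93118086-93118135 (minus strand), that of PARP14 at chr3:122680790-122680838 (plus strand) and that of OAS3 at chr12:112938311-112938473 (plus strand). The PARP9 stretch lies at chr3:122564312-122564361 (minus strand), and its 10 capital bases, chr3:122564332-122564341, are also the ISRE core match of DTX3L, which is transcribed from the opposite strand. The IFIT1 stretch lies at chr10:89392487-89392549 (plus strand), that of ISG15 at chr1:1013364-1013419 (plus strand) and that of IFI6, with 3 matches, at chr1:27672256-27672368 (minus strand). The stretches of the genes without a read lie at chr14:94110608-94110670 (plus strand) for IFI27 and at chr1:78649751-78649800 (plus strand) for IFI44. The IRF1 stretch lies at chr5:132490869-132490917 (minus strand).

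The ISRE core was as frequent among the members too low to be tested as among those tested. It was found in 14 of the 21 tested members with a window (66.7%) and in 8 of the 12 that were too low to be tested (66.7%). Among tested members, it was present in 6 of the 10 with a window that were called in at least 1 medium (60.0%) and in 8 of the 11 called in none (72.7%). The STAT homodimer core was in 3 of the 21 tested members (14.3%) and in 5 of the 12 not tested (41.7%), and among those tested in 3 of the 10 called (30.0%) and 0 of the 11 called in none. A match is a description of the letters and was not examined as a binding site.

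In these aggregates 17 of the 41 genes did not pass the filter on low counts, and 10 of them had at most 3 reads in every library. IFI44, IFI27 and the transcription factor IRF7, the amplifier of the interferon response, had no read in any of the 8 libraries. A further 7 genes had at most 3 reads in every library: the RNA sensor IFIH1 (MDA5), the antiviral GTPases GBP1 and MX1, the oligoadenylate synthetase family members OAS2 and OASL, and IFI35 and XAF1. IFIH1 had 1 read in each E15.5-mSGcm library and none elsewhere, and the only reads of OAS2, OASL, GBP1 and XAF1 were also in E15.5-mSGcm libraries, at 1 or 2 reads in a single library. These counts are below what can be told from 0 at this depth.

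The other 7 genes that did not pass the filter were DHX58 (LGP2, a regulator of the RNA sensors), BST2 (tetherin), RSAD2 (viperin), IFI44L, SAMD9L, MX2 and IRF9, with no count above 14, and some of them were no lower in reads than tested genes such as IFIT3 and USP18. IRF9, the DNA-binding partner of STAT2, was detected in all 8 libraries, at 8 and 11 reads in control, 7 and 8 in E8-cSGcm, 7 and 8 in E8-cDRGcm, and 5 and 5 in E15.5-mSGcm. Its normalised level lay between 0.524 and 0.723 CPM throughout. RSAD2, an antiviral radical enzyme, held the highest count of these genes, with 5 and 7 reads in control, 5 and 2 in E8-cSGcm, 2 and 2 in E8-cDRGcm, and 4 and 14 in E15.5-mSGcm. In normalised level the E15.5-mSGcm libraries of RSAD2, at 0.512 and 1.60 CPM, lay above those of control, at 0.382 and 0.460 CPM, and 1 library held the 14 reads.

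The remaining 24 genes passed the filter (a library-scaled equivalent of 10 counts, 0.757 CPM, in 2 libraries). For 5 of them, IFIT2, IFIT3, ISG20, USP18 and HERC6, at least 1 control library lay under that limit, so they could enter only through another library, and the counts below are given as counts of the tested genes and not as support for a direction. Per kilobase of annotated exon, the level in control was highest for the RNA editing enzyme ADAR, at 41.1 reads per kilobase on the same scale (RPKM), followed by the RNA-activated kinase EIF2AK2 (PKR) at 11.6, IFI6 at 8.03, PARP14 at 7.84, IFIT5 at 6.89 and TRIM25 at 6.28. ISG15 was at 3.79 and STAT2 at 2.42. The lowest tested genes were OAS1 at 0.083, ISG20 at 0.084 and IFIT2 at 0.123 RPKM.

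**Figure D1:**
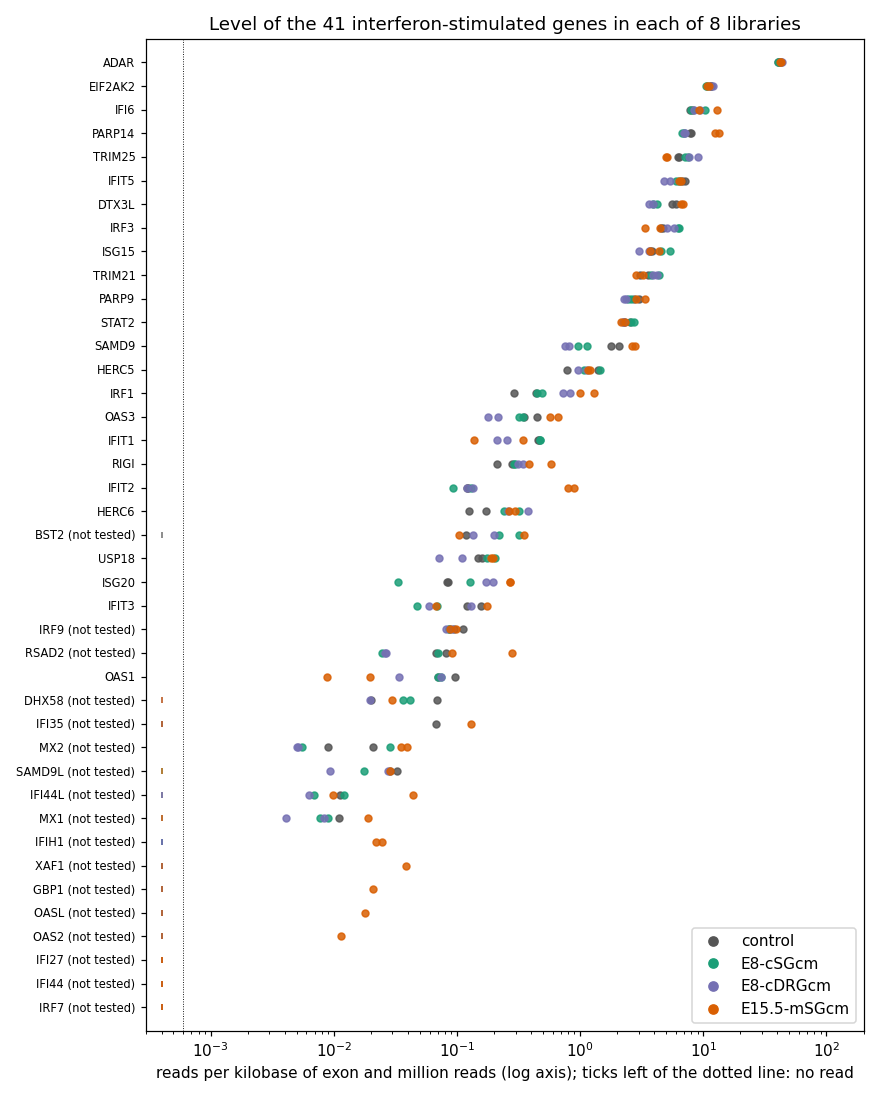
Level of the 41 interferon-stimulated genes in RPKM on a log axis, 1 point per library coloured by group, with genes ordered by their mean level and ticks left of the dotted line for libraries without a read. ADAR stands at the top at 41.8 and OAS1 at the bottom at 0.056 among the 24 tested genes, averaged over the groups, and IFI44, IFI27 and IRF7 have ticks only.

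A gene was called higher or lower where its fold change reached 1.5 and its adjusted p was under 0.05 (edgeR quasi-likelihood test with Benjamini-Hochberg adjustment over all 16680 genes tested), and "rose" and "fell" are used only for such calls. Of the 24 tested genes, 11 were called in at least 1 medium against control, where 30.7% of all tested genes were. They included 7 that rose in at least 1 medium and 5 that fell in at least 1, with OAS3 in both counts, beside 15.9% and 16.8% of all tested genes. No gene was called in the same direction in all 3 media. All 3 comparisons use the same 2 control libraries, so they are not independent of each other.

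In E8-cSGcm, 0 of the 24 tested genes rose and 1 fell, SAMD9, where 4.73% of all tested genes rose and 3.86% fell. At an unadjusted p under 0.05 and with no fold limit, 3 of the 24 were higher and 4 lower (20.9% and 19.5% of all tested genes), and DESeq2 called 0 higher and 1 lower. In E8-cDRGcm, 3 rose (IRF1, HERC6, ISG20) and 4 fell (IFIT1, OAS3, SAMD9, DTX3L), where 9.81% of all tested genes rose and 10.9% fell. In E15.5-mSGcm, 6 rose (RIGI, IRF1, IFIT2, OAS3, ISG20, PARP14) and 1 fell (OAS1), where 6.65% of all tested genes rose and 7.27% fell. As shares of the 24 tested genes, these are 0.0% and 4.17% in E8-cSGcm, 12.5% and 16.7% in E8-cDRGcm, and 25.0% and 4.17% in E15.5-mSGcm. The median log2 fold change of the 24 genes was 0.01 in E8-cSGcm, -0.09 in E8-cDRGcm and 0.10 in E15.5-mSGcm, beside 0.01, 0.01 and -0.02 over all tested genes.

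With the adjusted p alone and no fold limit, 2 of the 24 genes were higher and 3 lower in E8-cSGcm, where 16.1% and 15.2% of all tested genes were. In E8-cDRGcm, 4 were higher and 7 lower (24.8% and 24.7% of all tested genes), and in E15.5-mSGcm 9 were higher and 2 lower (17.8% and 20.0%). The genes that this added in E15.5-mSGcm were SAMD9, DTX3L and IFI6 on the higher side and TRIM25 on the lower side.

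**Figure D2:**
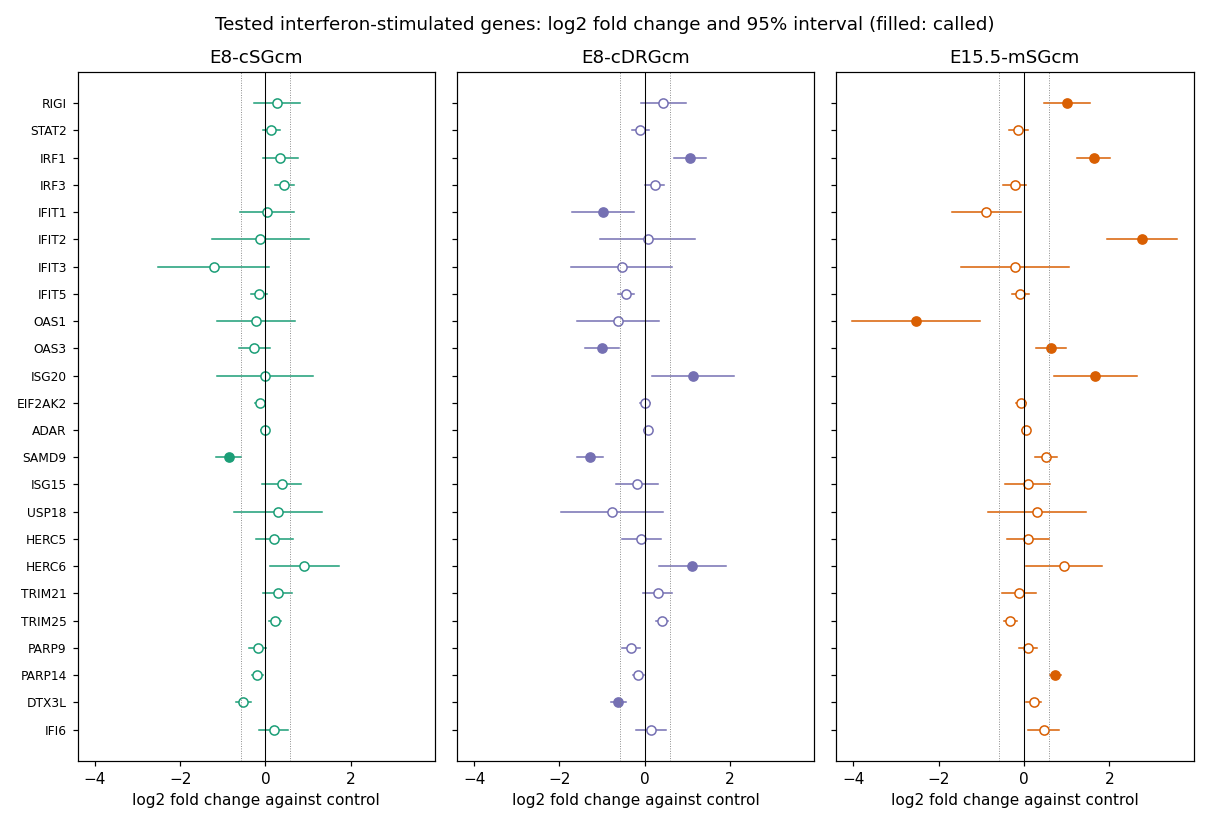
Log2 fold change against control of the 24 tested genes in each of the 3 conditioned media, with 95% intervals from the edgeR fit, dotted lines at a fold change of 1.5 and filled points for genes called. Called genes number 0 higher and 1 lower in E8-cSGcm, 3 and 4 in E8-cDRGcm, and 6 and 1 in E15.5-mSGcm, with IFIT2 at 2.77 and OAS1 at -2.53 in E15.5-mSGcm the farthest from 0.

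Among the 3 cytosolic RNA sensors, only RIGI, which binds RNA with a triphosphate end and signals through MAVS, was high enough to be tested. A same-strand gene model that is not in the count table, ENSG00000288684, overlaps 43.2% of its annotated exon length. The level of RIGI was 2.90 and 2.17 CPM in control, 3.05 and 3.01 in E8-cSGcm, 3.59 and 3.22 in E8-cDRGcm, and 3.97 and 6.05 in E15.5-mSGcm. The E15.5-mSGcm libraries were the highest and lay well apart from each other. RIGI rose in E15.5-mSGcm, with a log2 fold change of 1.01 ± 0.26 (SE, n = 2 libraries a group, edgeR adjusted p = 0.0024), and this rested on replicate 2, since without it the value was 0.66 (adjusted p = 0.168). It was 0.27 ± 0.26 in E8-cSGcm and 0.44 ± 0.26 in E8-cDRGcm, neither called.

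Of the 5 transcription factors, 3 were tested. IRF1, which binds ISRE-like elements and is itself induced by interferons and by other cytokines, was at 3.59 and 5.39 CPM in control, 5.53 and 6.02 in E8-cSGcm, 10.1 and 8.86 in E8-cDRGcm, and 16.0 and 12.3 in E15.5-mSGcm. The 4 groups did not overlap, and the order was control, E8-cSGcm, E8-cDRGcm, E15.5-mSGcm. IRF1 rose by 1.06 ± 0.18 on the log2 scale in E8-cDRGcm (edgeR adjusted p = 8.9e-06) and by 1.63 ± 0.19 in E15.5-mSGcm (5.2e-09), the only gene besides ISG20 to rise in 2 media, and was at 0.35 ± 0.20 in E8-cSGcm (0.20). The antisense gene IRF1-AS1, which overlaps 22.9% of its annotated exon length, had between 2 and 9 reads in every library.

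IRF3, a constitutive factor activated by phosphorylation downstream of MAVS, was at 17.7 and 17.3 CPM in control, 23.7 and 23.9 in E8-cSGcm, 19.2 and 22.0 in E8-cDRGcm, and 12.8 and 17.0 in E15.5-mSGcm. It was highest in E8-cSGcm and lowest in E15.5-mSGcm, but no medium passed the fold limit against control (0.45 ± 0.11 in E8-cSGcm, edgeR adjusted p = 0.0014). BCL2L12, on the opposite strand, covers 19.3% of the annotated exon length of IRF3. In raw reads it was also lowest in E15.5-mSGcm, where the libraries were shallowest, but it was highest in E8-cDRGcm. It had 69 and 86 reads in control, 99 and 120 in E8-cSGcm, 114 and 128 in E8-cDRGcm, and 30 and 27 in E15.5-mSGcm. The strand setting of the counting is not given in the sources used here, so a share of reads from one gene counted for the other cannot be told apart. STAT2, the transactivating part of the ISRE-binding complex, was between 20.0 and 25.6 CPM in all 8 libraries and was called in no comparison.

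Most of the 18 effectors limit the replication of viruses or other pathogens at different steps, and 10 of the 18 were tested. IFIT2, which belongs to a family that binds foreign RNA, gave the largest rise among the 24 tested genes, but passed the filter only through the 2 E15.5-mSGcm libraries where it was high. It had 7 and 8 reads in control, 5 and 8 in E8-cSGcm, 7 and 8 in E8-cDRGcm, and 27 and 34 in E15.5-mSGcm, in spite of the lower depth there. The levels were 0.535 and 0.526 CPM in control, 0.401 and 0.560 in E8-cSGcm, 0.524 and 0.586 in E8-cDRGcm, and 3.46 and 3.88 in E15.5-mSGcm. The 6 other libraries lay together and both E15.5-mSGcm libraries apart from them. The log2 fold change in E15.5-mSGcm was 2.77 ± 0.41 (edgeR adjusted p = 8.1e-07), and in the chick media it was -0.13 and 0.06. With the filter at 1 count in total over the libraries, the value for IFIT2 in E15.5-mSGcm was 2.72 (edgeR adjusted p = 5.54e-09). A same-strand gene model that overlaps 12.1% of its exon length, ENSG00000232110, had at most 4 reads in any library. No other tested IFIT gene was called in E15.5-mSGcm. IFIT3 had between 3 and 12 reads in every library and was called in no comparison, and IFIT5 was at 31.0 and 29.2 CPM in control, 23.3 and 21.0 in E8-cDRGcm (log2 fold change -0.44 ± 0.09, adjusted p = 0.00013, under the fold limit), and 27.7 and 28.7 in E15.5-mSGcm.

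IFIT1, which binds RNA lacking cap methylation, was at 2.14 and 2.10 CPM in control, 2.17 and 2.17 in E8-cSGcm, 0.972 and 1.17 in E8-cDRGcm, and 0.641 and 1.60 in E15.5-mSGcm. Control and E8-cSGcm were level, and all 4 libraries of the other media were lower. The log2 fold change was -0.98 ± 0.36 in E8-cDRGcm (edgeR adjusted p = 0.021) and -0.88 ± 0.40 in E15.5-mSGcm (0.078), and only the former was called. That call was lost when either control or either E8-cDRGcm library was left out (adjusted p between 0.0516 and 0.117), and DESeq2 gave 0.126. Without E15.5-mSGcm replicate 2 the value in that medium was -1.71 (adjusted p = 0.0296).

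The oligoadenylate synthetases make the second messenger that activates RNase L. OAS3, the family member most responsive to long double-stranded RNA, was at 8.03 and 6.38 CPM in control, 6.17 and 5.81 in E8-cSGcm, 3.22 and 3.88 in E8-cDRGcm, and 10.2 and 11.9 in E15.5-mSGcm. The 4 groups did not overlap. OAS3 fell in E8-cDRGcm (-1.01 ± 0.20, edgeR adjusted p = 4.8e-05) and rose in E15.5-mSGcm (0.63 ± 0.17, adjusted p = 0.0039), the only one of the 24 tested genes called in both directions. The rise stood close to the fold limit and was lost without control replicate 2 (0.47, adjusted p = 0.0848) or without E15.5-mSGcm replicate 2 (0.52, adjusted p = 0.0902).

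OAS1 moved the other way in E15.5-mSGcm. It had 12 and 19 reads in control, 12 and 13 in E8-cSGcm, 13 and 6 in E8-cDRGcm, and 2 and 1 in E15.5-mSGcm. The E15.5-mSGcm libraries were the lowest, and with 3 reads over the group against 31 in control, the normalised ratio was 6.05-fold lower with a 95% counting interval of 1.89 to 30.9. The edgeR fit gave an adjusted p of 0.0064, DESeq2 gave 0.0571, and without E15.5-mSGcm replicate 2 edgeR gave 0.104. The fall of OAS1 was therefore called at a depth where a few reads set its size. Without E15.5-mSGcm replicate 2, the gene called lower in that medium was IFIT1 and not OAS1.

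ISG20, an exonuclease that degrades single-stranded RNA, had 8 and 9 reads in control, 3 and 13 in E8-cSGcm, 19 and 17 in E8-cDRGcm, and 15 and 17 in E15.5-mSGcm. At 0.612 and 0.592 CPM in control against 1.42 and 1.25 in E8-cDRGcm and 1.92 and 1.94 in E15.5-mSGcm, both of the latter media lay above both control libraries, while the E8-cSGcm libraries (0.241 and 0.910) spanned the control values. It rose by 1.67 ± 0.48 on the log2 scale in E15.5-mSGcm (edgeR adjusted p = 0.0055) and by 1.14 ± 0.47 in E8-cDRGcm (0.043). ISG20 passed the filter through both libraries of each of these 2 media and 1 of E8-cSGcm, with 0 control libraries above the limit. The rise in E8-cDRGcm was lost without any 1 of the control, E8-cDRGcm or E15.5-mSGcm libraries (adjusted p between 0.0523 and 0.162), and DESeq2 gave 0.165.

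SAMD9, which restricts poxviruses, was the member whose level fell in both chick media. It was at 14.1 and 12.3 CPM in control, 7.86 and 6.65 in E8-cSGcm, 5.61 and 5.13 in E8-cDRGcm, and 18.2 and 19.3 in E15.5-mSGcm. The 4 groups did not overlap. The log2 fold change was -0.86 ± 0.14 in E8-cSGcm (edgeR adjusted p = 1.1e-05), -1.29 ± 0.15 in E8-cDRGcm (5.1e-09) and 0.51 ± 0.13 in E15.5-mSGcm (0.0021), the last under the fold limit. Its paralog SAMD9L had at most 4 reads in any library. The abundant effectors stayed level: ADAR was between 491 and 538 CPM and EIF2AK2 between 117 and 133 CPM in all 8 libraries, with log2 fold changes between -0.12 and 0.08 and no call.

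**Figure D3:**
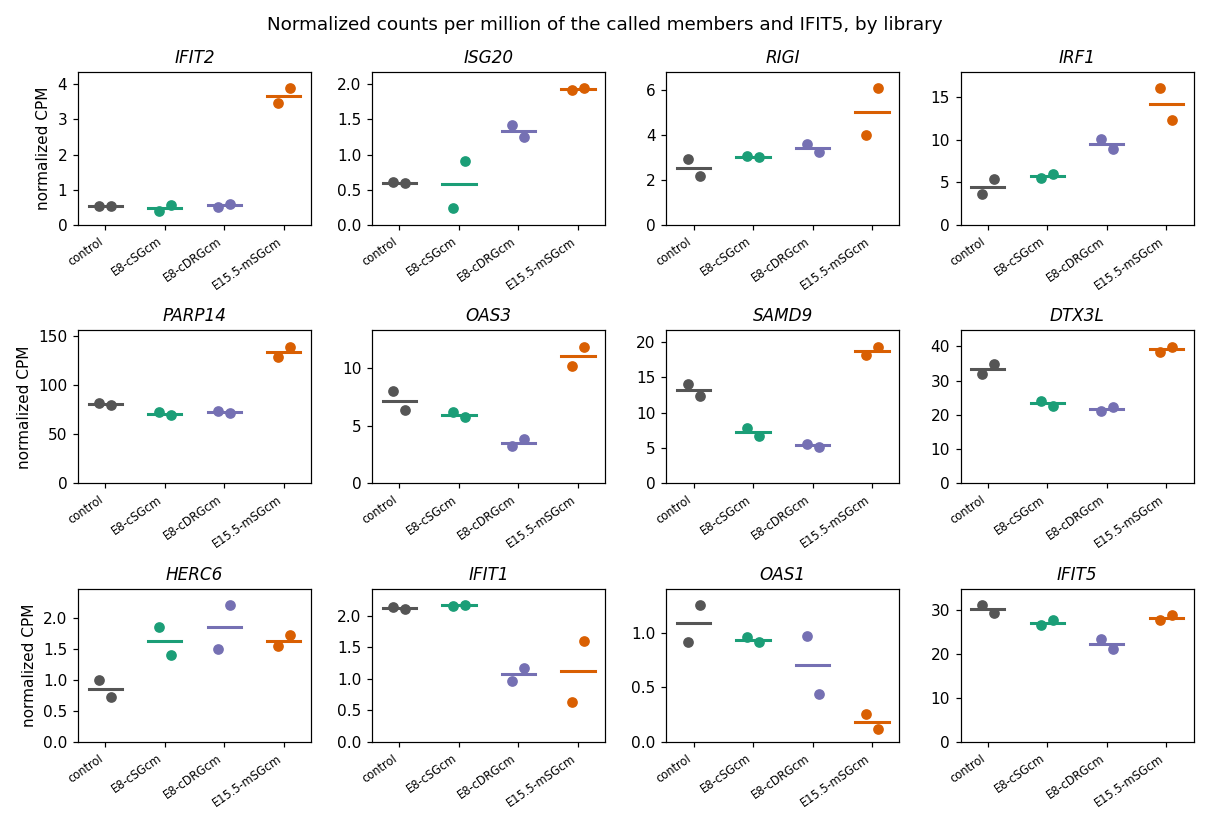
Normalised CPM of the 11 genes called in at least 1 medium and of IFIT5 in each library, 1 panel per gene with its own axis from 0, 2 points per group and a bar at the group mean. IFIT2 stands between 3.46 and 3.88 in E15.5-mSGcm and at most at 0.586 elsewhere, whereas SAMD9 and OAS3 are lowest in E8-cDRGcm and highest in E15.5-mSGcm.

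ISG15 and the enzymes around it make up 9 of the 41 genes, all of them tested. ISG15, a ubiquitin-like protein and among the genes most strongly induced by type I interferon, was at 3.21 and 3.35 CPM in control, 4.65 and 3.92 in E8-cSGcm, 2.62 and 3.15 in E8-cDRGcm, and 3.20 and 3.77 in E15.5-mSGcm. The E15.5-mSGcm and control libraries overlapped. Its log2 fold change was 0.38 (95% interval -0.08 to 0.83) in E8-cSGcm and 0.09 (95% interval -0.44 to 0.62) in E15.5-mSGcm, so that in the latter a rise above 0.62 lies outside the interval. USP18, which removes ISG15 and damps receptor signalling, had 4 to 12 reads in each library, and HERC5, the main ligase for ISG15, was between 3.75 and 6.93 CPM. Neither was called in any comparison.

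HERC6, a relative of HERC5, had 13 and 11 reads in control, 23 and 20 in E8-cSGcm, 20 and 30 in E8-cDRGcm, and 12 and 15 in E15.5-mSGcm. All 6 libraries of conditioned media, at 1.40 to 2.20 CPM, lay above the control libraries, at 0.994 and 0.723 CPM. Only E8-cDRGcm passed the test (1.11 ± 0.39, edgeR adjusted p = 0.016), with 0.91 ± 0.40 in E8-cSGcm (0.078) and 0.93 ± 0.44 in E15.5-mSGcm (0.094). The call was lost without control replicate 2 (adjusted p = 0.134) or E8-cDRGcm replicate 2 (0.195), and DESeq2 gave 0.098.

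PARP14, an ADP-ribosyltransferase, was at 81.4 and 79.8 CPM in control, 72.1 and 69.5 in E8-cSGcm, 73.2 and 71.7 in E8-cDRGcm, and 129 and 139 in E15.5-mSGcm. The replicates lay close together, and E15.5-mSGcm stood above the other 6 libraries. It rose by 0.73 ± 0.06 on the log2 scale in E15.5-mSGcm (edgeR adjusted p = 2.3e-12). That was the lowest adjusted p of any rise against control among the 24 tested interferon-stimulated genes. DTX3L, a ubiquitin ligase that works as a pair with PARP9, was at 32.0 and 34.7 CPM in control, 24.1 and 22.6 in E8-cSGcm, 21.1 and 22.4 in E8-cDRGcm, and 38.3 and 39.9 in E15.5-mSGcm. DTX3L fell in E8-cDRGcm (-0.62 ± 0.09, edgeR adjusted p = 4.2e-07), although without control replicate 2 the value, -0.56, was under the fold limit. It was at -0.52 ± 0.09 in E8-cSGcm (2e-05) and 0.23 ± 0.09 in E15.5-mSGcm (0.044), neither past that limit.

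PARP9, the partner whose promoter window shares its ISRE core with DTX3L, kept the same order of groups with smaller differences, and its E15.5-mSGcm and control libraries overlapped. It was at 24.7 and 26.7 CPM in control, 22.0 and 23.2 in E8-cSGcm, 20.9 and 20.2 in E8-cDRGcm, and 30.2 and 25.2 in E15.5-mSGcm, and was called in no comparison (log2 fold change -0.32 ± 0.10 in E8-cDRGcm, edgeR adjusted p = 0.0067). TRIM25, a ubiquitin ligase for RIGI, was at 77.1 and 78.8 CPM in control, 88.4 and 93.0 in E8-cSGcm, 112 and 94.5 in E8-cDRGcm, and 62.6 and 62.3 in E15.5-mSGcm. The groups did not overlap, but the differences from control, 0.40 ± 0.07 in E8-cDRGcm and -0.32 ± 0.07 in E15.5-mSGcm, were under the fold limit. TRIM21, a cytosolic antibody receptor, was between 5.48 and 8.42 CPM with no call.

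Of the 6 other interferon-inducible genes only IFI6, a mitochondrial and endoplasmic reticulum protein that limits cell death and viral replication, was tested. It was at 7.34 and 7.69 CPM in control, 7.38 and 9.73 in E8-cSGcm, 7.85 and 8.79 in E8-cDRGcm, and 8.58 and 12.0 in E15.5-mSGcm. Both E15.5-mSGcm libraries lay above control, and the log2 fold change there was 0.46 ± 0.18 (edgeR adjusted p = 0.039), under the fold limit.

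The E15.5-mSGcm libraries were also the shallowest, and their summed level of fibroblast markers was the highest. In that medium COL1A2 (log2 fold change 2.01), DCN (2.30), LUM (0.93) and PDGFRA (3.65) were called higher and COL1A1 (-1.82) lower. Their part in the results of the interferon-stimulated genes was not tested. On counts thinned to the smallest library, 6 of the tested members were called higher in E15.5-mSGcm and 0 lower. OAS1 no longer passed the filter there. The share of all genes called on thinned counts was not computed, so this count is not read against depth.

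The media were then compared with each other in the same fit, whose estimate of the spread also uses the control libraries. Between E15.5-mSGcm and E8-cSGcm, both from sympathetic ganglia but of mouse and chick, 8 of the 24 genes were higher in E15.5-mSGcm and 2 lower, where 10.2% of all tested genes were higher and 12.1% lower. The largest differences among the genes that were higher were in IFIT2 (2.90 ± 0.42 on the log2 scale, edgeR adjusted p = 3.38e-07), ISG20 (1.68 ± 0.49, adjusted p = 0.00397), SAMD9 (1.38 ± 0.15) and IRF1 (1.28 ± 0.18). PARP14 (0.92), OAS3 (0.89), DTX3L (0.74) and RIGI (0.74) were the other 4 that were higher. OAS1 and IRF3 were lower, at -2.30 and -0.67, so that in size only IFIT2 exceeded OAS1. The IRF3 difference was under the fold limit without E15.5-mSGcm replicate 1 (-0.49) and on thinned counts (-0.56). DESeq2 called neither RIGI (adjusted p = 0.0839) nor OAS1 (adjusted p = 0.0669) in this comparison. The RIGI difference was lost without E15.5-mSGcm replicate 2 (0.39, edgeR adjusted p = 0.38) or E8-cSGcm replicate 2 (0.73, adjusted p = 0.0592), that of ISG20 without E8-cSGcm replicate 1 (1.08, adjusted p = 0.0759) and that of OAS1 without E15.5-mSGcm replicate 2 (adjusted p = 0.132).

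Between E15.5-mSGcm and E8-cDRGcm, which differ in both species and ganglion, 5 genes were higher in E15.5-mSGcm and 2 lower, where 13.1% of all tested genes were higher and 13.1% lower. IFIT2 differed by 2.71 ± 0.41 on the log2 scale (edgeR adjusted p = 5.37e-07), SAMD9 by 1.80 ± 0.15 (1.72e-12), OAS3 by 1.64 ± 0.20 (6.6e-09), PARP14 by 0.89 and DTX3L by 0.85. TRIM25 was lower by -0.72 ± 0.07 (8.1e-11) and OAS1 by -1.90 ± 0.81 (0.0481), the latter on 3 reads against 19. For OAS1, DESeq2 gave an adjusted p of 0.139. Without E8-cDRGcm replicate 1 the OAS1 value was -1.22 (adjusted p = 0.34) and the TRIM25 value, -0.58, was just under the fold limit. The OAS1 difference was also lost without any 1 of the control or E15.5-mSGcm libraries (edgeR adjusted p between 0.0501 and 0.269).

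Between E8-cDRGcm and E8-cSGcm, the 2 chick media, 1 gene was higher in E8-cDRGcm and 2 were lower, where 2.62% of all tested genes were higher and 4.87% lower. IRF1 was higher by 0.71 ± 0.18 on the log2 scale (edgeR adjusted p = 0.00216). OAS3 was lower (-0.75 ± 0.21, adjusted p = 0.00466), as was IFIT1 (-1.01 ± 0.36, adjusted p = 0.0292). The IFIT1 difference was lost when any 1 of the 4 libraries was left out (adjusted p between 0.0724 and 0.159), and that of OAS3 was lost without E8-cDRGcm replicate 1 (0.071). Over the 6 comparisons, 13 of the 24 tested genes were called at least once and 11 never, where 41.5% of all tested genes were called at least once.

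The interferons and their signalling genes, a list of 38 that holds none of the 41, give the setting of these values. The ligands IFNA1, IFNA2, IFNB1, IFNE, IFNK, IFNW1, IFNG, IFNL1, IFNL2 and IFNL3 had no read in any library, nor had IRF8. In all, 23 of the 38 were tested and 15 were not, and for SOCS3, IRF5 and TLR3 at least 1 control library lay under the filter limit. The receptor chain IFNAR1 was at 60.3 and 61.7 CPM in control and 85.8 and 79.5 in E15.5-mSGcm (log2 fold change 0.44), and the other chain, IFNAR2, at 3.59 and 3.09 CPM in control and 2.95 and 3.54 in E15.5-mSGcm (-0.03, edgeR adjusted p = 0.94). Neither passed the fold limit in any medium against control, and IFNAR1 was called higher in E15.5-mSGcm than in E8-cSGcm (0.64). IFNGR2, a chain of the interferon gamma receptor, was called lower in E15.5-mSGcm than in E8-cDRGcm (-0.79), and TLR3 higher in E15.5-mSGcm than in E8-cSGcm (1.20).

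Of these 23 genes, 2 rose and 0 fell in E8-cSGcm, 4 rose and 2 fell in E8-cDRGcm, and 3 rose and 0 fell in E15.5-mSGcm. Over all tested genes the shares were 4.73% and 3.86%, 9.81% and 10.9%, and 6.65% and 7.27%. At an unadjusted p under 0.05 and with no fold limit, 3 of the 23 were lower in E8-cSGcm and 1 in E15.5-mSGcm (19.5% and 23.8% of all tested genes), and DESeq2 called 0 lower in both. SOCS3, an inhibitor of JAK kinases, was at 0.765 and 0.460 CPM in control and rose in E8-cSGcm to 2.49 and 2.03 (1.88 ± 0.39 on the log2 scale, edgeR adjusted p = 0.00025) and in E8-cDRGcm to 3.37 and 2.56 (2.28 ± 0.37, adjusted p = 2.7e-06), with 0.769 and 0.914 in E15.5-mSGcm. IRF5, an inducer of interferon and inflammatory genes, also rose in both chick media. Its log2 fold change was 1.29 ± 0.43 in E8-cSGcm (edgeR adjusted p = 0.0186) and 1.55 ± 0.41 in E8-cDRGcm (adjusted p = 0.0019). IRF5 had 8 and 10 reads in control, 23 and 19 in E8-cSGcm, and 27 and 24 in E8-cDRGcm. It had 0 control libraries above the filter limit. JAK1 rose in E8-cDRGcm (0.71 ± 0.05), and MAVS, the adaptor of RIGI, fell there (-0.88 ± 0.07, adjusted p = 6.5e-14). TICAM1, the adaptor of TLR3, rose in E8-cDRGcm (0.66 ± 0.12) and in E15.5-mSGcm (0.63 ± 0.13), and IRF2, a factor that competes with IRF1 for its sites, rose in E15.5-mSGcm (0.85 ± 0.10).

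IKBKE, a kinase that phosphorylates IRF3 and IRF7, was at 7.42 and 8.02 CPM in control, 6.09 and 6.51 in E8-cSGcm, 1.87 and 1.90 in E8-cDRGcm, and 19.5 and 15.4 in E15.5-mSGcm. The 4 groups did not overlap, and the order was that of SAMD9 and OAS3, with E8-cDRGcm lowest and E15.5-mSGcm highest. IKBKE fell in E8-cDRGcm (-2.03 ± 0.22, edgeR adjusted p = 5.5e-10) and rose in E15.5-mSGcm (1.17 ± 0.15, adjusted p = 1.2e-07), the only one of the 23 tested pathway genes called in both directions.

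**Figure D4:**
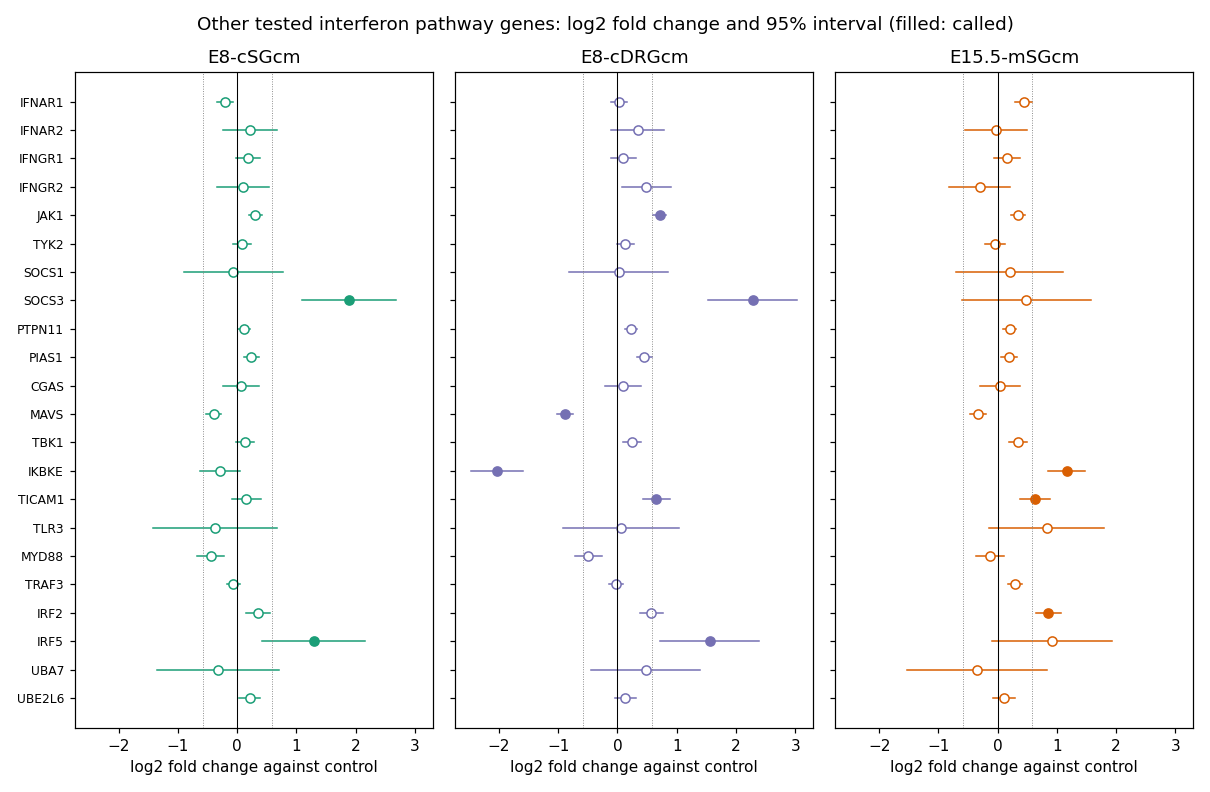
Log2 fold change against control of the tested interferon pathway genes outside the list, except 1 not reported here, in each conditioned medium, with 95% intervals, dotted lines at a fold change of 1.5 and filled points for genes called. IKBKE lies at -2.03 in E8-cDRGcm and 1.17 in E15.5-mSGcm, while SOCS3 lies at 1.88 and 2.28 in the chick media.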

How the data were processed

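IGR-N91 aggregates were profiled by RNA sequencing (75 bp single reads, stranded total RNA kit, 50 ng of RNA), with 2 libraries in each of 4 groups. The authors deposited raw read counts per Ensembl gene, not normalised and not filtered. The submitters' processing notes name bcl2fastq 2.17.1.14, cutadapt 1.9.1, TopHat2 2.1.0 and HTSeq 0.11.3. The methods name genome build hg19 and the notes GRCh38, so no gene positions are printed from the counts. The strand option and annotation release are not given in the sources used here.

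All 8 libraries entered 1 robust quasi-likelihood fit with TMM factors in edgeR 4.0.16 (R 4.3.3), after its default filter by group. P-values were adjusted by the Benjamini-Hochberg method over all 16680 tested genes, and calls needed a fold change of 1.5 or more with an adjusted p under 0.05. Standard errors came from the log2 fold change and its F statistic. The steps were tested on simulated data. Exon lengths and overlaps came from GENCODE release 44 mapped to GRCh37, and lengths cover all annotated isoforms. Counting intervals cover counting error only.

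All 41 members are named, and other pathway genes where they were called in a medium against control, with the ligands and IRF8, which had no reads. IFNAR1, IFNAR2, IFNGR2, TLR3 and the overlapping genes were chosen after their values were seen. Some listed genes are not reported here. The members and lists were chosen with earlier results of these data known. Alternatives were DESeq2 1.42.0, RLE and upper-quartile factors, low-count filters (1 count over all libraries, or 10 in each), a fit of the compared libraries alone, a replicate block, thinning to the smallest library, adjusted p alone, a fold change of at least 2, and each library left out in turn. Figures were drawn with matplotlib 3.10.9.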

Additional observations from a re-analysis of the deposited data

Results flagged for a closer look

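For 20 pairs of a gene and a contrast between media, the effects against control differed by the test of the difference itself (edgeR quasi-likelihood test, adjusted over all tested genes, and a fold change of at least 1.5). Over all tested genes, 13.1% were higher and 13.1% lower in E15.5-mSGcm than in E8-cDRGcm. The shares were 10.2% and 12.1% in E15.5-mSGcm against E8-cSGcm, and 2.62% and 4.87% in E8-cDRGcm against E8-cSGcm. Against E8-cDRGcm, E15.5-mSGcm was higher in DTX3L (0.85 on the log2 scale), PARP14 (0.89), OAS3 (1.64), SAMD9 (1.80) and IFIT2 (2.71), and lower in TRIM25 (-0.72) and OAS1 (-1.90). Against E8-cSGcm, it was higher in RIGI (0.74), DTX3L (0.74), OAS3 (0.89), PARP14 (0.92), IRF1 (1.28), SAMD9 (1.38), ISG20 (1.68) and IFIT2 (2.90), and lower in OAS1 (-2.30) and IRF3 (-0.67). Against E8-cSGcm, E8-cDRGcm was higher in IRF1 (0.71) and lower in OAS3 (-0.75) and IFIT1 (-1.01). OAS3 differed between all 3 pairs of media. For SAMD9, DTX3L, OAS3, PARP14 and TRIM25 the libraries of E8-cDRGcm and E15.5-mSGcm lay on opposite sides of control.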

How the results depend on the processing

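Each group has 2 libraries, and low members rest on few reads, with the shallowest libraries in E15.5-mSGcm. Over the 6 contrasts, 13 of the 24 genes were called at least once, where 41.5% of all tested genes were. Of 144 values (24 genes in 6 contrasts), 35 were called. Their 613 recomputed values over 18 alternatives kept the call in 548 and lost it in 65, with 0 reversed, and 12 of the 35 kept it under every alternative that gave a value. OAS1, IFIT1, IFIT2 and ISG20 did not pass the filter at 10 counts in every library, and OAS1 did not pass on thinned counts or in the separate fits of E15.5-mSGcm with a chick medium. DESeq2 gave no adjusted p for 21 values of members and pathway genes, and these were not counted as lost. A further 26 uncalled values became called under some alternative. The replicate numbers are only shared names: deviations of same-numbered libraries correlated at -0.0437 to 0.042. With the replicate block, 1 gene was lower in E15.5-mSGcm than in E8-cDRGcm in place of 2 (OAS1, adjusted p = 0.0533), and no other count moved by more than 1.5 times.

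Counts of interferon-stimulated genes that moved by more than 1.5 times, or from 0, are given by setting, and the cause was not tested. Shares of all tested genes were computed for the main fit only, and not for a fold change of at least 2. The counts from other fits, and with a library left out, therefore have no share beside them. DESeq2 called 1 higher in E8-cDRGcm, 0 lower in E15.5-mSGcm, and 1 lower in each of E15.5-mSGcm against E8-cSGcm, E15.5-mSGcm against E8-cDRGcm and E8-cDRGcm against E8-cSGcm, where its adjusted p for IFIT1 was missing. Upper-quartile factors and the filter at 1 count each gave 1 lower in E15.5-mSGcm against E8-cDRGcm. The filter at 10 counts in every library, which tests fewer genes, gave 1 higher in E8-cSGcm, 0 lower in E15.5-mSGcm, and 1 lower in each contrast between media. Only the libraries compared gave 1 lower in E15.5-mSGcm against either chick medium. Thinned counts gave 1 higher in E8-cDRGcm, 0 lower in E15.5-mSGcm, 0 lower against E8-cSGcm, and 1 lower in the other contrasts between media. Adjusted p alone gave 2 higher and 3 lower in E8-cSGcm, 7 lower in E8-cDRGcm, 2 lower in E15.5-mSGcm, 4 lower against E8-cSGcm, 8 higher against E8-cDRGcm, and 2 higher in E8-cDRGcm against E8-cSGcm. A fold change of at least 2 gave 0 lower in E8-cSGcm, 2 lower in E8-cDRGcm, 4 higher and 1 lower in E15.5-mSGcm against E8-cSGcm, 3 higher and 1 lower against E8-cDRGcm, and 0 higher and 1 lower in E8-cDRGcm against E8-cSGcm.

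Of the other pathway genes, DESeq2 called 1 higher in E8-cSGcm, the filter at 10 counts 0 there and 2 in E8-cDRGcm, adjusted p alone 6 higher and 3 lower in E8-cSGcm, 9 higher in E8-cDRGcm, and 10 higher and 1 lower in E15.5-mSGcm, and a fold change of at least 2 gave 2 higher and 1 lower in E8-cDRGcm and 1 higher in E15.5-mSGcm. With each library left out in turn, interferon-stimulated genes called higher numbered 0 in E8-cSGcm, 1 to 3 in E8-cDRGcm and 4 to 7 in E15.5-mSGcm, and those called lower 1, 2 to 4 and 1. Between media they numbered 7 to 8 higher and 1 to 2 lower in E15.5-mSGcm against E8-cSGcm, 5 to 6 and 0 to 2 against E8-cDRGcm, and 1 to 2 and 0 to 2 in E8-cDRGcm against E8-cSGcm. Pathway genes called higher numbered 1 to 2, 4 to 6 and 2 to 3 in the 3 media, and lower 0, 2 to 3 and 0.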
